A study of Mus musculus with 6 samples.

Results

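The cell cycle and proliferation genes examined here were 40 mouse genes, chosen by symbol from 19509 symbols in a table of bulk RNA-Seq counts from inguinal white adipose tissue (iWAT). They were read by the phase in which each acts: 10 genes of S phase, 22 of G2 and mitosis (G2/M), 6 cyclins and kinases of G1 and of entry into S phase, and 2 inhibitors of cyclin-dependent kinases (CDKs). Where a symbol had more than 1 row, the row with the highest total count stood for it. The mice had eaten a Western diet for 12 weeks, with 3 libraries labelled *Lexis*-AdWT (AdWT 1 to 3) and 3 labelled *Lexis*-AdKO (AdKO 1 to 3). *Lexis* is a long noncoding RNA, and the study made AdKO mice by crossing a floxed *Lexis* allele with Adipoq-cre, which is active in adipocytes, so that the other cells of the depot keep an intact allele. The controls were littermates, the study's mice were on a C57BL/6 background, and the sex and age of the mice behind each library were not given in the sources used here. The comparison asks whether RNA of the cell cycle genes differed in iWAT with the adipocyte deletion.

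A dividing cell copies its DNA in S phase and separates the copies in mitosis, and each step is driven by a CDK bound to its cyclin. D-type cyclins with Cdk4 and cyclin E with Cdk2 lead a cell out of G1, and cyclins A and B with Cdk1 lead it through G2 into mitosis. Mature white adipocytes hardly divide, whereas the progenitors, macrophages and endothelial cells of the depot can, and RNA of mitotic genes is nearly absent from resting cells. In bulk tissue, fewer cells of a type and less RNA per cell cannot be told apart.

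The libraries held between 14470542 and 17882713 counts, and the trimmed mean of M values (TMM) factors lay between 0.937 and 1.04. Levels are given as TMM-scaled CPM (counts scaled to a common library size), in which a count of 0 allows up to 3 counts, or between 0.179 and 0.206 CPM, covering counting error only. The row of *4930412L05Rik*, the long noncoding RNA gene of the *Lexis* locus on chromosome 4, had 8, 9 and 8 counts in the AdWT libraries and 21, 11 and 13 in the AdKO libraries, a log2 fold change of 0.87 (SE 0.381, adjusted *p* = 0.851, edgeR's quasi-likelihood test). This row was therefore no lower under the AdKO label, it does not separate the gene's exons, and all directions here follow the labels. Of 10 adipocyte markers 8 could be tested, *Cidec* had no row analysed here and *Pnpla2* was at 0, and their summed level was between 52082 and 63992 CPM per library.

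Promoter sequences describe the same genes outside these counts. Mitotic genes often carry a cell cycle homology region (CHR), the element bound by the repressor complex of resting cells, together with CCAAT boxes, whereas S phase genes often carry a site for E2F factors. The RefSeq windows of GRCm38.p6, from 250 bases before to 50 after each gene's start, were searched on both strands for the CHR (TTTGAA or TTTAAA), the CCAAT box (CCAAT) and the E2F site (TTTNNCGC, with each N a C or a G). Of the 40 genes, 33 had a window. The CHR was in 17 of 19 windows of G2/M genes (89.5%), in 3 of 10 of S phase genes (30%) and in 27.6% of all 32851 windows. The E2F site was in 4 of 10 windows of S phase genes (40%), in 1 of 19 of G2/M genes and in 2.26% of all windows. The CCAAT box was in 17 of 19 and 9 of 10, against 37.4% of all windows. Among the members' windows, 2 matches of different motifs shared bases. The 200 bases before the start are shown for the G2/M gene with the most counts (*Mki67*), for a mitotic motor that moved with it (*Kif11*), for a G2/M gene with a narrower spread among libraries (*Cdk1*) and for an S phase gene with an E2F site (*Mcm7*). Capitals mark the matches of the 3 motifs on either strand, and all sequences read 5′ to 3′ on the gene's strand.
Mki67, chr7:135716380-135716579, minus strand: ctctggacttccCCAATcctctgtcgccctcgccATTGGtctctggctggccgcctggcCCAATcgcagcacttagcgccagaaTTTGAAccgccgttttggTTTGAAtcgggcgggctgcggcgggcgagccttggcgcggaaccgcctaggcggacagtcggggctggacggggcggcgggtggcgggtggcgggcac
Kif11, chr19:37376182-37376381, plus strand: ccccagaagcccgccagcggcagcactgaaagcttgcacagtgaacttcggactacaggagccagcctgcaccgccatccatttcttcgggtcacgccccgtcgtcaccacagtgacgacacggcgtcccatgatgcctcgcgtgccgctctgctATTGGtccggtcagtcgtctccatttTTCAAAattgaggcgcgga
Cdk1, chr10:69352913-69353112, minus strand: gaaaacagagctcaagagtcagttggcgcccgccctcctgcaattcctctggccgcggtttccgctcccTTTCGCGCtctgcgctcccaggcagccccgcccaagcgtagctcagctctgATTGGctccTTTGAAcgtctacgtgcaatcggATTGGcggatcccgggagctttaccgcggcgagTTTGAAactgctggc
Mcm7, chr5:138171884-138172083, minus strand: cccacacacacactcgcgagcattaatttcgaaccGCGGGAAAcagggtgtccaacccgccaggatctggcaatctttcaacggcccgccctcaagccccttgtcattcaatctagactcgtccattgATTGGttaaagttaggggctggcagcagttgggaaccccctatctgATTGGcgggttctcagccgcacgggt
In these stretches *Mki67* has 2 CHRs and 3 CCAAT boxes, *Kif11* 1 of each, *Cdk1* 2 CHRs, 2 CCAAT boxes and 1 E2F site, and *Mcm7* 2 CCAAT boxes and 1 E2F site but no CHR. Another window of *Mcm7*, not shown, holds no E2F site, and 2 of the 7 windows of tested S phase genes hold one. A match is a description of the letters and not of a bound site.

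Of the 40 genes, 36 had a row and 27 had enough counts for edgeR's default filter (filterByExpr). *Mcm6*, *Aurka*, *Aurkb* and *Plk1* had no row analysed here. *Prc1*, *Tpx2* and *Ube2c*, which act on the spindle and in mitotic protein breakdown, were at 0 in all 6 libraries. Another 6 were under the filter, with totals over the 6 libraries of 2 counts for *Mcm5*, 8 for *Tyms*, 27 for *Ccnb1*, 1 for *Bub1*, 7 for *Kif20a* and 23 for *Nusap1*. *Mcm5* encodes a subunit of the same helicase ring as *Mcm2*, *Mcm3*, *Mcm4* and *Mcm7*, and those 4 had between 1947 and 3795 counts each. Of the 19 members with 1 row 18 were tested, against 9 of the 17 with more rows. Over all symbols the share tested was 43.0% with 1 row, 48.7% with 2 rows, 44.0% with 3 to 4 and 46.8% with 5 or more. Why these genes were at or near 0 was not tested.

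Levels between genes were compared per kilobase of annotated exon (NCBIM37, the mm9 assembly, union of exons), as the mean over the 6 libraries. *Ccnd2*, a D-type cyclin, stood at 102 CPM per kb, above *Cdk4* at 29.9 and *Pcna*, the sliding clamp of DNA polymerase, at 29.7. The inhibitor *Cdkn2c* (p18), which blocks Cdk4 and Cdk6, stood at 13.9 CPM per kb, and *Cdkn1a* (p21), a p53 target that inhibits several CDKs, at 0.766. The S phase genes tested lay between 3.66 (*Rrm2*) and 29.7 CPM per kb. The G2/M genes tested lay between 0.289 (*Cdc20*) and 4.44 (*Cdk1*), with *Mki67* at 4.21 and *Ccnb2* at 3.92. *Ccnd1*, *Ccnd2*, *Cdk4* and *Ccne1* thus stood above every G2/M gene tested in level per length, and *Cdk2* and *Ccnd3* did not. These levels set the highest row of a symbol against the exons of the whole gene, so a symbol with more rows may be understated. *Ccnd3* (5 rows), *Cdk2* (3 rows) and *Cdc20* (2 rows) are among such symbols. Exons shared with a neighbouring gene were found for 12 of the 40 genes, 8 of them tested (*Cdk4* with *Tspan31*, *Ccna2* with *Exosc9* and *Ccnd1* with *Oraov1* among them), and the counting rule for such reads and for strand was not given in the sources used here. Named pseudogene copies are annotated for *Pcna*, *Ccnb2* and *Ccnd3*.

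Between the groups, no cell cycle gene passed the test. In the quasi-likelihood test of edgeR, adjusted by the Benjamini-Hochberg method over the 9872 rows tested, 0 of the 27 members had an adjusted *p* under 0.05, where 0 rows did over the whole table (0%). At an unadjusted *p* under 0.05 there were 4 of 27, against 5.73% of all rows, and DESeq2 gave 0 and 2 of 33 (*Mcm3* and *Ccnd2*), where 473 of 19526 rows were under 0.05 unadjusted. Of the 4 in edgeR's test, *Mcm4*, *Pcna* and *Cdk4* were on the higher side in AdKO (2.76% of all rows were) and *Ccnd2* on the lower side (2.98%). The AdKO and AdWT libraries did not overlap in 3 members (*Mcm4*, *Mcm7* and *Cdk4*), against 11.9% of all rows. In all 3 the AdKO libraries lay above (6.16% of all rows), and in no member did they lie below (5.72%). The log2 fold change was above 0 in 24 of the 27 members and in 5105 of the 9872 rows. The median was 0.25 over the members and 0.0071 over all rows.

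**Figure D1:**
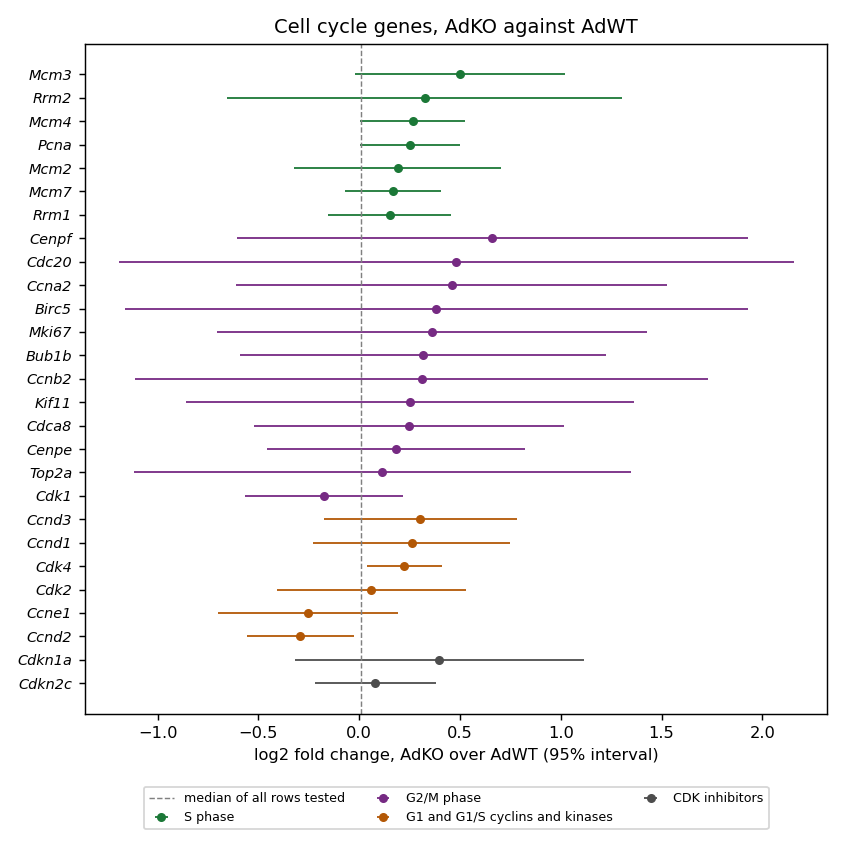
Log2 fold change, AdKO over AdWT, of the 27 tested cell cycle genes with the 95% interval from edgeR's quasi-likelihood fit, coloured by phase, and the median of all rows tested as a dashed line. The intervals of all 12 G2/M genes span 0, and that of *Cdk1* is the narrowest of them, while those of *Mcm4*, *Pcna* and *Cdk4* lie just above 0 and that of *Ccnd2* just below it.

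The S phase genes build the replication fork and its supply of nucleotides. All 7 tested had a log2 fold change above 0, with a median of 0.25 and a range from 0.15 to 0.50. Of the 7, 2 had an unadjusted *p* under 0.05 in edgeR's test, against 5.73% of all rows (2.76% on the higher side). *Pcna* measured 72.9, 65.5 and 57.0 CPM in AdWT 1 to 3 and 71.8, 83.1 and 77.9 CPM in AdKO 1 to 3. AdWT 3 was lowest and AdKO 2 highest, and the groups overlapped because AdWT 1 exceeded AdKO 1. Its log2 fold change was 0.25 (SE 0.106, adjusted *p* = 0.851, edgeR).

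The subunits of the MCM helicase, which unwinds DNA ahead of the fork, gave like orders of the libraries. *Mcm4* measured 39.4, 34.0 and 31.2 CPM in AdWT and 40.3, 45.4 and 40.02 CPM in AdKO, so that every AdKO library was above every AdWT library, by a small margin. Its log2 fold change was 0.26 (SE 0.111, adjusted *p* = 0.851, edgeR). *Mcm7* measured 39.1, 39.5 and 36.5 CPM in AdWT and 40.3, 48.7 and 40.1 CPM in AdKO. These groups did not overlap either, with AdKO 2 apart from the rest and a log2 fold change of 0.17 (SE 0.102). *Mcm3* measured 30.03, 23.9 and 17.3 CPM in AdWT and 27.9, 41.2 and 31.5 CPM in AdKO. It had the largest difference of the S phase genes, 0.50 on the log2 scale (SE 0.223, adjusted *p* = 0.851, edgeR), with AdWT 1 inside the range of AdKO. *Mcm2* measured 26.1, 17.3 and 15.2 CPM in AdWT and 19.8, 26.5 and 20.6 CPM in AdKO, a log2 fold change of 0.19 (SE 0.220). Here AdWT 1 and AdKO 2 were high and the other 4 libraries lay together.

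*Rrm1* and *Rrm2* encode the large and the small subunit of ribonucleotide reductase, which makes deoxynucleotides. *Rrm1* measured 50.3, 45.7 and 35.6 CPM in AdWT and 46.5, 51.3 and 48.3 CPM in AdKO, with AdWT 3 below the rest. *Rrm2*, the subunit made in S phase, measured 14.9, 6.58 and 5.55 CPM in AdWT and 7.70, 15.9 and 10.2 CPM in AdKO. AdWT 1 and AdKO 2 stood above the other libraries of their groups, and the log2 fold changes were 0.15 (SE 0.131) for *Rrm1* and 0.32 (SE 0.419) for *Rrm2*. The highest and lowest AdWT libraries differed by 1.41-fold for *Rrm1* and by 2.69-fold for *Rrm2*.

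The G2/M genes spread more widely among the libraries of a group than the group means lay apart. Of the 12 tested, 11 had a log2 fold change above 0, with a median of 0.31 and a range from -0.17 (*Cdk1*) to 0.66 (*Cenpf*), and 0 had an unadjusted *p* under 0.05. Within groups, the SD of log2(CPM + 0.5) had a median of 0.718 over these 12 genes, against 0.187 over the 7 S phase genes and 0.201 over all rows tested. *Mki67*, which encodes the proliferation antigen Ki-67, measured 61.6, 34.0 and 15.8 CPM in AdWT and 30.7, 57.1 and 55.4 CPM in AdKO. The 95% Clopper-Pearson interval of its level was 57.8 to 65.7 CPM in AdWT 1 and 13.8 to 17.9 CPM in AdWT 3, so the distance between these libraries exceeded counting error. Its log2 fold change was 0.36 (SE 0.456, adjusted *p* = 0.894, edgeR), and the range of AdWT enclosed that of AdKO.

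Cyclin and checkpoint genes of mitosis gave the same high and low libraries. *Ccna2* (cyclin A2) measured 15.05, 7.35 and 4.68 CPM in AdWT and 7.70, 17.98 and 11.5 CPM in AdKO, a log2 fold change of 0.46 (SE 0.457). *Bub1b*, which encodes the spindle checkpoint kinase BubR1, measured 16.2, 9.09 and 5.75 CPM in AdWT and 9.07, 17.3 and 12.3 CPM in AdKO, a log2 fold change of 0.32 (SE 0.388). In both, AdWT 1 and AdKO 2 were highest and AdWT 3 lowest, and the groups overlapped widely. *Ccnb2* (cyclin B2) had 161, 68 and 24 counts in AdWT and 64, 145 and 102 in AdKO, so that AdWT 1 exceeded AdWT 3 by 6.56-fold in CPM, and its log2 fold change was 0.31 (SE 0.608).

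The motors and kinetochore proteins that move chromosomes followed. *Kif11*, the kinesin that pushes spindle poles apart, measured 15.4, 7.59 and 4.01 CPM in AdWT and 7.42, 15.2 and 9.49 CPM in AdKO, a log2 fold change of 0.25 (SE 0.475). *Cenpe*, a kinetochore motor, measured 10.9, 9.09 and 5.15 CPM in AdWT and 8.52, 11.1 and 8.83 CPM in AdKO, a log2 fold change of 0.18 (SE 0.274). AdWT 3 was lowest for both, and the spread was narrower for *Cenpe* than for *Kif11*. *Cenpf*, a kinetochore protein, had 105, 47 and 21 counts in AdWT and 54, 122 and 96 in AdKO, with a log2 fold change of 0.66 (SE 0.543, adjusted *p* = 0.863, edgeR). *Top2a*, the topoisomerase that untangles sister chromatids, had between 32 and 137 counts per library, with AdWT 3 lowest, AdKO 3 above AdKO 2 and a log2 fold change of 0.11 (SE 0.527). *Cdca8* and *Birc5* encode borealin and survivin of the chromosomal passenger complex. They had 38 to 87 and 4 to 38 counts per library, with log2 fold changes of 0.25 (SE 0.328) and 0.38 (SE 0.661). *Cdc20*, the activator of the anaphase-promoting complex, had only 1 to 15 counts per library and a log2 fold change of 0.48 (SE 0.716).

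*Cdk1*, the kinase of mitotic entry, had the narrowest range of the G2/M genes in AdWT and shared their highest libraries. It measured 18.6, 14.6 and 15.4 CPM in AdWT and 11.9, 16.9 and 14.3 CPM in AdKO. AdWT 1 and AdKO 2 were highest, as for most G2/M genes, but its lowest library was AdKO 1, and its highest and lowest AdWT libraries differed by only 1.28-fold. The log2 fold change was -0.17 (SE 0.167, adjusted *p* = 0.885, edgeR). The promoter printed above holds an E2F site as well as CHRs, the only E2F match among the G2/M windows. Whether this match bears on the levels of *Cdk1* was not tested.

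**Figure D2:**
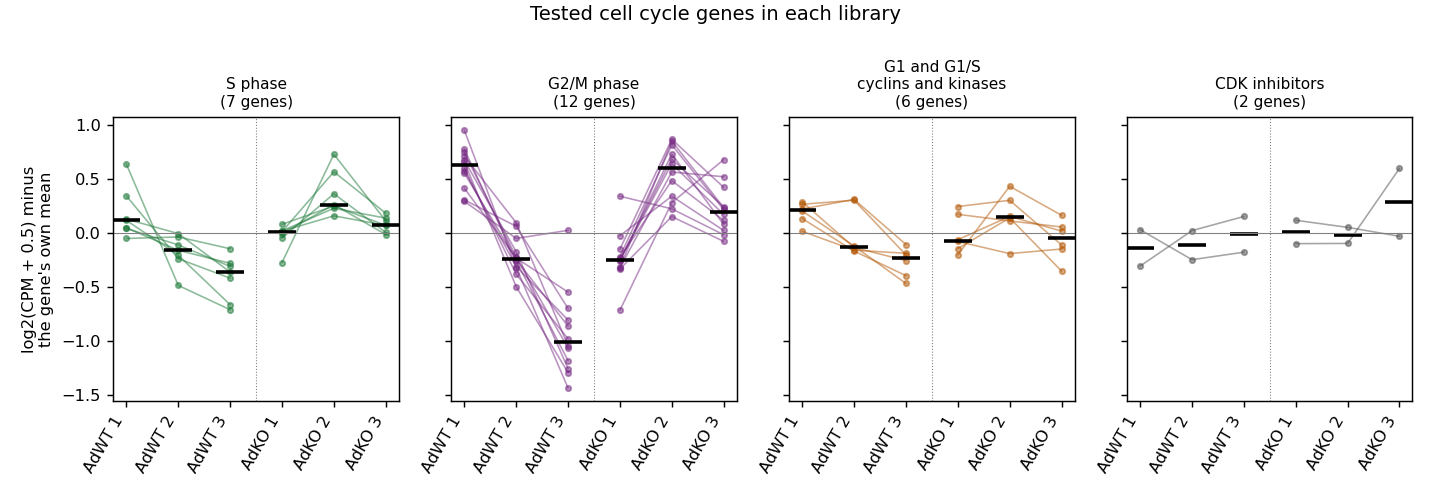
Level of each of the 27 tested genes in the 6 libraries, as log2(CPM + 0.5) minus the gene's own mean over the libraries, by phase. Coloured points are genes, thin lines join the values of a gene within a group, and black bars are medians. The G2/M genes fan out from AdWT 1 and AdKO 2 at the top to AdWT 3 at the bottom, with a smaller spread for S phase and no common order for the CDK inhibitors.

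Read by library, a low AdWT 3 recurred across most of the 27 genes, and the order of the other libraries varied. AdWT 3 was the lowest of the 6 libraries in 22 of 27 members, 7 of 7 for S phase and 11 of 12 for G2/M, against 24% of all rows tested. It was the lowest of the 3 AdWT libraries in 24 of 27, against 36.3% of all rows, and lay below all 3 AdKO libraries in 23 of 27, against 32.3%. AdKO 2 was the highest library in 7 of 7 S phase genes and 5 of 12 G2/M genes, against 18% of all rows. AdWT 1 was the highest in the other 7 G2/M genes, against 14.6% of all rows. AdWT 1 and AdKO 2, which carry different labels, were the highest pair in 10 of 12 G2/M genes and 3 of 7 S phase genes, and in 15 of all 27, against 11.3% of all rows. Genes of 1 library share its RNA, so these counts describe libraries and not independent genes.

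The size of the gap differed by phase. AdWT 1 exceeded AdWT 3 with a median of 3.83-fold over the 11 G2/M genes for which the ratio was taken (*Cdc20*, with 1 count in AdWT 3, was left out). The range was from 1.21-fold for *Cdk1* to 9.29-fold for *Birc5*, which had 4 counts in AdWT 3. In 10 of these 11 the ratio was above 2, against 6.44% of all rows, whose median was 1.001. For S phase genes the median was 1.41-fold, from 1.07-fold for *Mcm7* to 2.69-fold for *Rrm2*, with 1 of 7 above 2. Within AdKO, AdKO 2 exceeded AdKO 1 with a median of 1.98-fold for G2/M genes and 1.21-fold for S phase genes.

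Summed over the 9 S phase genes with a row, the level was 273, 232 and 199 CPM in AdWT (235 ± 37.1, SD, n = 3) and 254, 312 and 269 CPM in AdKO (278 ± 30.2, SD, n = 3). Summed over the 19 G2/M genes with a row, it was 173, 98.9 and 59.1 CPM in AdWT (110 ± 58.1, SD, n = 3) and 91.4, 169 and 139 CPM in AdKO (133 ± 39.1, SD, n = 3). The difference of the G2/M means was smaller than the SD of either group. The G2/M sum over the S phase sum was 0.636, 0.426 and 0.298 in AdWT and 0.359, 0.540 and 0.519 in AdKO. *Mki67* made up between 26.7% and 39.7% of the G2/M sum. Without it, in a sum added after the data were seen, AdWT 1 still exceeded AdWT 3 by 2.58-fold (2.94-fold with it).

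**Figure D3:**
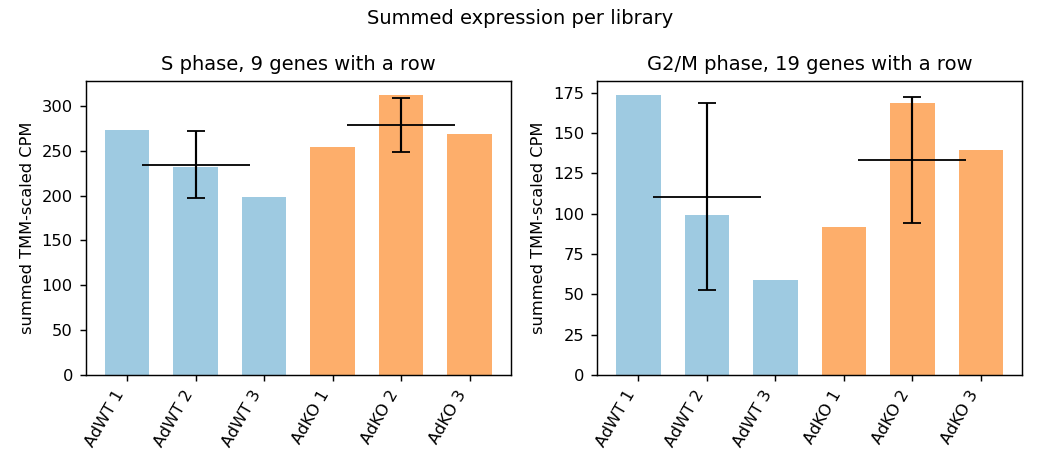
Summed TMM-scaled CPM per library for the S phase genes (left) and the G2/M genes (right), bars from 0, with the group mean as a horizontal line and the SD of 3 libraries as error bars. The G2/M sum runs from 59.1 CPM in AdWT 3 to 173 CPM in AdWT 1, a wider spread than that of the S phase sum.

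The cyclins and kinases of G1 lay closer together. *Ccnd2* (cyclin D2) measured 672, 715 and 535 CPM in AdWT and 545, 504 and 519 CPM in AdKO. AdWT 1 and AdWT 2 were above all AdKO libraries, AdWT 3 was among them, and the log2 fold change was -0.29 (SE 0.114, adjusted *p* = 0.851, edgeR). *Cdk4*, its partner kinase, measured 97.6, 86.4 and 84.6 CPM in AdWT and 108.9, 104.3 and 100.3 CPM in AdKO. All AdKO libraries were above all AdWT libraries, with a log2 fold change of 0.22 (SE 0.0790, adjusted *p* = 0.851, edgeR).

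*Ccnd1* (cyclin D1) measured 49.5, 39.5 and 30.9 CPM in AdWT and 37.3, 58.2 and 48.2 CPM in AdKO, and *Ccnd3* (cyclin D3) measured 7.85, 6.28 and 5.29 CPM and 8.52, 8.89 and 6.55 CPM. The log2 fold changes of these D-type cyclins were 0.26 (SE 0.209) and 0.30 (SE 0.205), opposite in sign to that of *Ccnd2*, with overlapping groups. *Ccne1* (cyclin E1) measured 18.5, 19.0 and 13.2 CPM in AdWT and 13.7, 16.9 and 11.8 CPM in AdKO, a log2 fold change of -0.25 (SE 0.191). Its partner *Cdk2* measured 7.07, 5.14 and 4.68 CPM and 5.43, 6.39 and 5.77 CPM, a log2 fold change of 0.06 (SE 0.200). Neither gene set the groups apart, and AdWT 3 was the lowest AdWT library for both.

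The inhibitors did not share the order of the proliferation genes. *Cdkn2c* measured 29.8, 37.6 and 41.2 CPM in AdWT and 40.2, 38.4 and 36.2 CPM in AdKO, a log2 fold change of 0.08 (SE 0.128). AdWT 1, the highest library for most G2/M genes, was its lowest, and AdWT 3 its highest. *Cdkn1a* had 26, 22 and 21 counts in AdWT and 22, 23 and 46 in AdKO, a log2 fold change of 0.40 (SE 0.307) that rested on AdKO 3. Without AdKO 3 it was 0.04.

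Single libraries decided the G2/M difference. Without AdWT 3 the median log2 fold change of the 12 genes was -0.05, with 4 above 0 and 8 below. Without AdKO 2 it was 0.04, and without AdWT 1 it was 0.91, with 5 of 12 at an unadjusted *p* under 0.05, where 11.8% of all rows then were. The S phase median stayed above 0 with each library left out, from 0.10 without AdKO 2 to 0.36 without AdWT 1. The number of the 27 members at an unadjusted *p* under 0.05, 4 with all libraries, was 11 without AdWT 1. It was 2 without AdWT 3 (4.9% of all rows), 2 without AdKO 1 (4.49%), 1 without AdKO 3 (5.04%), 0 without AdWT 2 (3.2%) and 0 without AdKO 2 (3.82%). The share of all rows thus moved as well, and the number of members at an adjusted *p* under 0.05 was 0 each time.

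**Figure D4:**
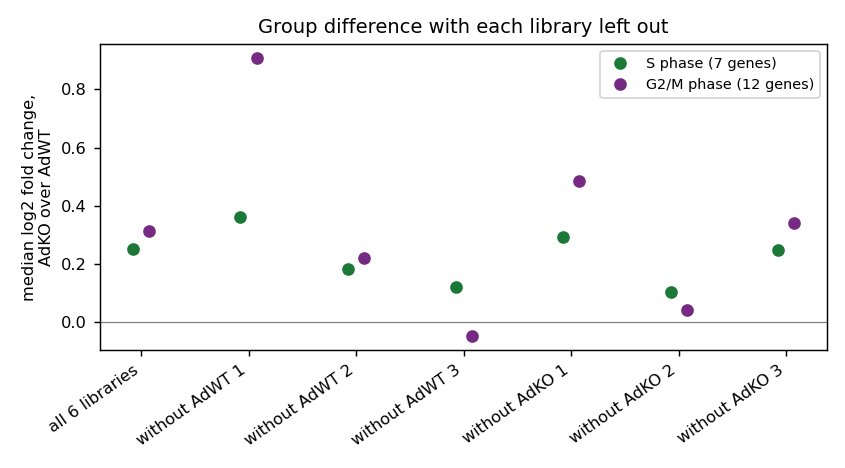
Median log2 fold change, AdKO over AdWT, of the 7 S phase and 12 G2/M genes tested, with all 6 libraries and with each left out in turn. The G2/M median runs from -0.05 without AdWT 3 to 0.91 without AdWT 1, while the S phase median stays above 0.

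Other genes of the same phases, from lists of 42 G2/M and 40 S phase genes, were read in the same way. Of 21 other G2/M genes tested, 16 had a log2 fold change above 0 and 5 below, with a median of 0.20, and 17 of 21 were lowest in AdWT 3. Their smallest unadjusted *p* was that of *Anln* (anillin, of the cleavage furrow), at 28.1, 26.9 and 25.7 CPM in AdWT and 19.8, 23.2 and 21.9 CPM in AdKO. It was the only one of the 21 under 0.05, near the 5.73% of all rows, its log2 fold change was -0.31 (SE 0.101, adjusted *p* = 0.851, edgeR), and AdWT 3 was not its lowest library. *Pttg1* (securin), *Hmgb2* and *Ndc80* followed, with log2 fold changes of -0.40 (SE 0.181), 0.38 (SE 0.2501) and 0.77 (SE 0.568). Of 18 other S phase genes tested, 10 were above 0 and 8 below, with a median of 0.05, 6 of 18 were lowest in AdWT 3, and 1 was under 0.05 unadjusted, again near the share of all rows. This last was *Atad2*, at 2.36, 2.15 and 1.87 CPM in AdWT and 3.02, 4.08 and 2.82 CPM in AdKO, a log2 fold change of 0.63 (SE 0.221). *Cdc45*, *Dut* and *Ung*, which act at the fork and in keeping uracil out of DNA, had log2 fold changes of -0.48 (SE 0.277), -0.48 (SE 0.291) and -0.39 (SE 0.248). These 18 genes thus did not all share the direction of the 7 tested S phase members.

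Markers of some other cell types were also low in AdWT 3, and those of others were not. The macrophage markers, of which 10 of 16 could be tested, summed to 1881, 1229 and 706 CPM in AdWT and 1526, 1729 and 2290 CPM in AdKO. All 10 were lowest in AdWT 3, against 24% of all rows, while their sum was highest in AdKO 3. Of these 10, 9 had a log2 fold change above 0, with a median of 0.44, where 5105 of the 9872 rows were above 0. In edgeR's test 2 (*Cd9*, and *Lgals3* with 8 to 42 counts per library) had an unadjusted *p* under 0.05, against 5.73% of all rows. Among the defining genes of macrophages, *Adgre1*, *Cd68* and *Cd14* had no row analysed here and the row *Emr1*, an older symbol of *Adgre1*, was at 0. The progenitor and fibroblast markers (6 of 12 tested) summed to 7557, 5793 and 3491 CPM in AdWT and 6023, 10386 and 5727 CPM in AdKO, carried mainly by *Col3a1*, and *Pdgfra* and *Pdgfrb* were under the filter. The endothelial markers (6 of 10 tested) summed to between 1025 and 1504 CPM in AdWT and between 1026 and 1446 CPM in AdKO, with AdWT 1 and AdKO 2 highest, no row for *Pecam1* analysed here and *Kdr* under the filter. The adipocyte markers (8 of 10 tested) summed to 57167, 63396 and 63992 CPM in AdWT and 52921, 53897 and 52082 CPM in AdKO, so that all AdKO libraries lay below all AdWT libraries, and 6 of the 8 tested had a log2 fold change below 0. Of these, 2 (*Lep* and *Cd36*) had an unadjusted *p* under 0.05 in edgeR's test, against 2.98% of all rows on the lower side. The lymphocyte markers (8 of 17 tested) summed to 68.5 to 88.9 CPM in AdWT and 57.1 to 77.7 CPM in AdKO, with *Cd8a* and *Cr2* at 0. *Ighm* made up most of this sum, at 38.2 to 56.3 CPM, and was highest in AdWT 2. By gene, AdWT 1 was the highest library in 5 of the 8 (14.6% of all rows). AdWT 1 and AdKO 2 were the highest pair in 4 of 8 (11.3%), and AdWT 3 was the lowest in 4 of 8 (24%). In 7 of the 8 the log2 fold change was below 0, and *Cd4* alone had an unadjusted *p* under 0.05 in edgeR's test. *Cd4*, for example, had 200 counts in AdWT 1 and 40 to 62 in the other libraries, and *Cd79a*, of B cells, had 86 against 11 to 34. The skeletal muscle markers (7 of 12 tested) summed to 20.3 to 192 CPM in AdWT and 6.49 to 7.36 CPM in AdKO, highest in AdWT 2. All 7 tested had a log2 fold change below 0, with a median of -3.50, and an unadjusted *p* under 0.05 in edgeR's test. In 6 of them all AdKO libraries lay below all AdWT libraries (5.72% of all rows), and none had an adjusted *p* under 0.05. The epithelial markers (1 of 8 tested) summed to 0.956 to 20.3 CPM in AdWT and 0.894 to 48.0 CPM in AdKO. Their sum was highest in AdKO 3 and next in AdWT 3, with at most 1.44 CPM in the other 4 libraries. No progenitor, endothelial or epithelial marker tested had an unadjusted *p* under 0.05. The part of these cell types in the levels of the cell cycle genes was not tested.

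**Figure D5:**
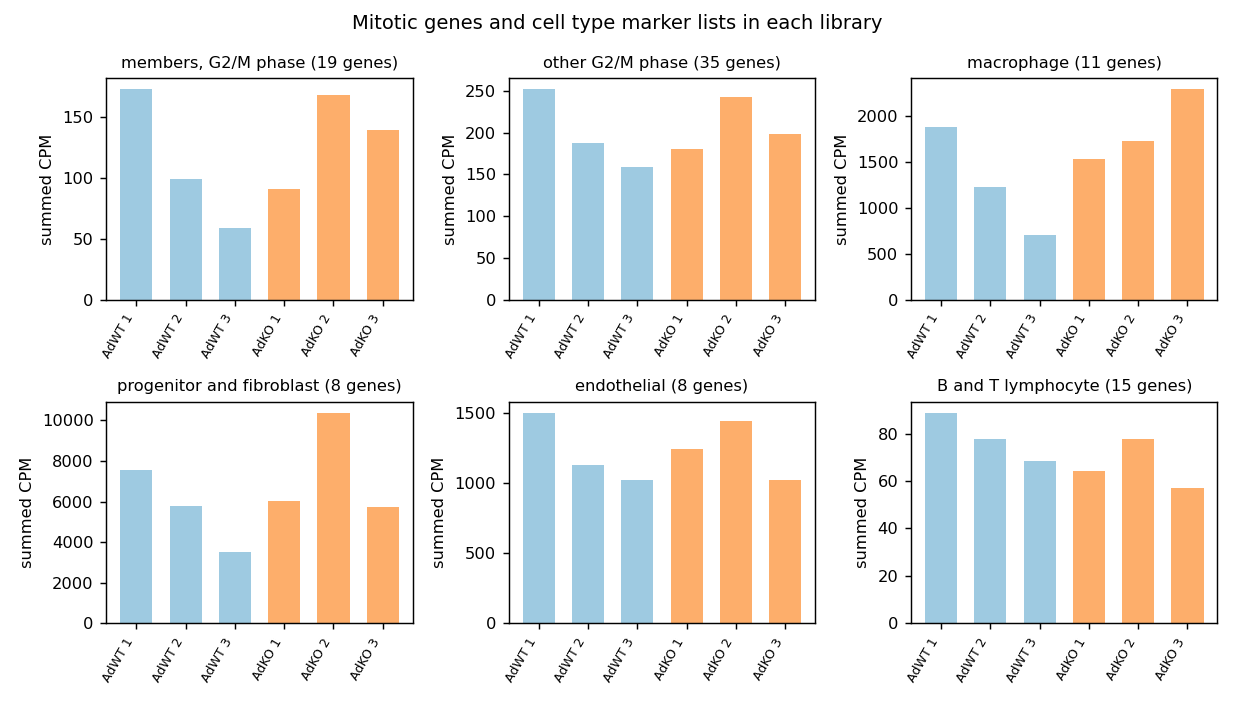
Summed TMM-scaled CPM per library of the G2/M genes, of other G2/M genes and of 4 cell type marker lists, bars from 0 and each panel on its own scale. AdWT 3 has the lowest bar for the G2/M genes (59.1 CPM), other G2/M genes (159 CPM), macrophage markers (706 CPM) and progenitor and fibroblast markers (3491 CPM). It is also lowest for the endothelial markers (1025 CPM), next to AdKO 3 (1026 CPM). The lymphocyte bars are carried mostly by *Ighm*, which did not share this order.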

How the data were processed

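RNA-Seq libraries of iWAT were made with a stranded kit and sequenced on an Illumina HiSeq. Reads were aligned by the authors with HISAT2 (mm9), and the values deposited are unnormalized counts. The counting tool, annotation and strand setting were not given in the sources used here. The table held 37024 rows, of which 17470 were at 0 in all libraries. Total counts were 14470542 to 17882713 per library, and the biological coefficient of variation common to all rows was 0.196, so replicate spread set the precision of abundant genes. Whether the 3 libraries of a group were separate animals rests on the study's term biological replicates.

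Counts were compared with edgeR 4.0.16 (filterByExpr by group, TMM, glmQLFit, glmQLFTest) in R 4.3.3, with Benjamini-Hochberg adjustment over 9872 rows and a threshold of 0.05. The study's own test was DESeq2 and is an alternative here (DESeq2 1.42.0). The edgeR fit was tested on simulated data. SE is the log2 fold change over the square root of F, and 95% intervals use the fit's degrees of freedom. Spread was taken on log2(CPM + 0.5). Gene positions came from GENCODE vM1 and promoters from RefSeq, read with Python 3.11.15, and figures were drawn with matplotlib 3.10.9.

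The members and lists were chosen with earlier results of these data known. All 40 members were accounted for. Values in every library were given for members with an unadjusted *p* under 0.05, at least 50 counts in every library or the highest total of their phase, and up to 4 genes with the smallest *p* were named from each other list of cell cycle genes. *Top2a*, *Ccnb2*, *Cenpf* and *Cdkn1a* were given in more detail after their values were seen, as were the cell type markers named.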

Additional observations from a re-analysis of the deposited data

How the results depend on the processing

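Under 17 alternatives (DESeq2, scalings, filters, a robust fit, rows of a symbol summed, a replicate block, each library left out), 0 members had an adjusted *p* under 0.05 and 17 of 27 members kept their direction. Leaving out a library reversed the other 10. Their log2 fold changes then ranged from -0.014 to 0.89 (*Rrm2*), -0.0086 to 0.94 (*Mki67*), -0.27 to 0.61 (*Top2a*), -0.13 to 1.23 (*Ccnb2*), -0.016 to 1.70 (*Cdc20*), -0.091 to 1.36 (*Birc5*), -0.079 to 0.41 (*Cenpe*), -0.11 to 0.88 (*Kif11*), -0.065 to 0.25 (*Cdk2*) and -0.041 to 0.17 (*Cdkn2c*). Members at an unadjusted *p* under 0.05, 4 in the reported fit, were 2 with DESeq2 (both settings), RLE size factors or upper quartile scaling, and 0 to 11 with a library left out, while those among all rows ran from 329 to 1208 against 566 as reported. With at least 1 count in any library *Mcm3* joined the 4 members, and with library size only *Ccnd2* left them. Rows with an adjusted *p* under 0.05, 0 as reported, were 27 with DESeq2, 13 with DESeq2 without Cook's cutoff and independent filtering, 1 with at least 1 count in any library, and 0 to 1 with a library left out. The cause was not tested. The summed levels moved by less than the SD between replicates in every alternative for which they were taken anew. AdWT 3 was lowest in 22 members with RLE or upper quartile scaling and 21 with library size only, scalings added for this count after the data were seen.

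With the replicate number as a block, 2 members (*Ccnd2* and *Cdk4*, with 0 of the 7 S phase genes) had an unadjusted *p* under 0.05, as had 418 of 9872 rows, and the G2/M median was 0.46. Libraries with the same number deviated from their group means with correlations across genes of -0.10, -0.12 and 0.35, and AdWT 1 correlated best with AdKO 2 (0.45). Whether libraries with the same number share a litter, cage or day was not given in the sources used here and was not tested. *Cdc20* and *Birc5* had as few as 1 and 4 counts in a library, so counting error adds to their spread.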

Other observations

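Among 33 regulators of the cell cycle (E2F and Rb families, the complex that binds CHRs, checkpoint kinases and inhibitors), 15 could be tested, 10 with a log2 fold change above 0 and 5 below, a median of 0.12, and 0 at an unadjusted *p* under 0.05 in edgeR's test. *E2f5*, a repressive E2F, measured 12.9, 12.1 and 13.3 CPM in AdWT and 14.4, 16.01 and 15.4 CPM in AdKO, without overlap, a log2 fold change of 0.26 (SE 0.113, adjusted *p* = 0.851, edgeR). *Cdkn1b* (p27), an inhibitor of CDKs in resting cells, measured 19.0, 20.8 and 11.8 CPM in AdWT and 22.8, 28.3 and 20.4 CPM in AdKO, a log2 fold change of 0.47 (SE 0.227), with AdWT 3 lowest and AdKO 2 highest as for many proliferation genes. *Cdkn2b* and *Wee1* had log2 fold changes of -0.19 (SE 0.117) and 0.15 (SE 0.130).

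Of 18 targets of p53, 14 could be tested, 4 above 0 and 10 below, with a median log2 fold change of -0.08. *Sesn2*, a stress-induced sestrin, measured 137, 164 and 166 CPM in AdWT and 127, 114 and 122 CPM in AdKO, without overlap, a log2 fold change of -0.37 (SE 0.0922, adjusted *p* = 0.817, edgeR). It was the only one of the 14 with an unadjusted *p* under 0.05, where 5.73% of all rows were. *Sesn1*, *Plk2* and *Btg2* had log2 fold changes of -0.36 (SE 0.177), 0.40 (SE 0.248) and -0.10 (SE 0.0765), and *Cdkn1a*, the p53 target among the members, 0.40.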
